A study of Mus musculus with 4 samples.

Results

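Aire, Fezf2 and 8 genes of RANK, CD40 and lymphotoxin-beta receptor signalling were followed across the stromal cell types of the mouse thymus and between 2 Foxn1 genotypes. The members were Tnfrsf11a (RANK), Tnfrsf11b (osteoprotegerin), Cd40, Ltbr, Traf3, Relb, Nfkb2, Aire, Fezf2 and Cd80. They were taken by gene symbol from the feature list common to all libraries, and make up 10 of its 32285 genes. All 10 had at least 1 unique molecular identifier (UMI, a count of 1 captured RNA molecule) in the summed epithelium of each library. The RNA of CD45- thymic cells had been counted cell by cell from its 3′ ends, in droplets, in 4 libraries of untreated C57BL/6 mice aged 6 months. In 2 libraries the mice were wild type (WT, titled Foxn1LacZ mock), and in 2 they were homozygous for Foxn1LacZ (Z/Z), a hypomorphic allele of the epithelial transcription factor Foxn1 that is carried in every cell of the animal. Cells were pooled from 10 to 15 thymi, digested with liberase and DNase, depleted of CD45+ cells on magnetic beads and sorted, so a library is a pool of animals and not 1 mouse. No label ties the pools to separate litters or days, and p-values therefore measure the spread between these libraries.

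RANK, CD40 and the lymphotoxin-beta receptor are receptors of the TNF family. In the thymus they stand on medullary thymic epithelial cells (mTECs) and receive ligands from developing T cells and lymphoid tissue inducer cells. Without ligand, TRAF3 holds the kinase NIK at a low level. Receptor engagement relieves this, NIK drives processing of the NFKB2 precursor, and the product enters the nucleus with RELB. Osteoprotegerin is a soluble decoy that binds the RANK ligand. Mature mTECs are known for AIRE and FEZF2, which permit transcription of tissue-restricted self-antigens, and for CD80, a co-stimulatory ligand for T cells.

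The members lie on 10 chromosomes. In GRCm38, the build of the deposited matrices, Aire spans chr10:78030022-78043610 on the minus strand and Fezf2 chr14:12342094-12348189 on the minus strand. Among the receptors, Tnfrsf11a spans chr1:105780718-105847981 on the plus strand, Cd40 chr2:165055627-165072948 on the plus strand, and Ltbr chr6:125306571-125313885 on the minus strand. The decoy Tnfrsf11b spans chr15:54250619-54278484 on the minus strand. Traf3 spans chr12:111166370-111267153 on the plus strand, Relb chr7:19606217-19629438 on the minus strand, Nfkb2 chr19:46304320-46312385 on the plus strand, and Cd80 chr16:38455561-38496335 on the plus strand.

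RefSeq promoter sequence (GRCm38.p6) was matched by symbol for 7 of the 10 members, namely Aire, Fezf2, Tnfrsf11a, Ltbr, Nfkb2, Traf3 and Cd80. The 250 bases before each start were searched on both strands for an NF-kB motif, GGG followed by any 3 bases and then TTCC. Of all 32851 promoter rows of the same length, 1527 (4.65%) held them. Matches were found for 2 members, Traf3 and Nfkb2. The Traf3 promoter is shown because its match begins 10 bases before the start. It was also chosen because both Z/Z libraries lay below both WT libraries for this gene in thymic epithelial cells, fibroblasts and endothelium. Of all genes tested in these types, 39.2, 29.3 and 23.9% had that order, and Relb, with no promoter row, had it in each. A link between the match and the levels was not tested. The Aire promoter is shown beside that of Traf3 as an output of the pathway with no match in this window. Capitals mark the match, and the sequences run 5′ to 3′ on the strand of the gene.
Traf3 (chr12:111166120-111166369, plus strand): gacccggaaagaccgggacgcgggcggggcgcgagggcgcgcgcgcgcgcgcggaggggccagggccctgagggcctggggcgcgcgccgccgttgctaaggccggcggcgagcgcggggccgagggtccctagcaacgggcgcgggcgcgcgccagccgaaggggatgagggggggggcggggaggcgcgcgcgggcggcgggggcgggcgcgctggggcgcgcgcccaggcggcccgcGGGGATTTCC
Aire (chr10:78043611-78043860, minus strand): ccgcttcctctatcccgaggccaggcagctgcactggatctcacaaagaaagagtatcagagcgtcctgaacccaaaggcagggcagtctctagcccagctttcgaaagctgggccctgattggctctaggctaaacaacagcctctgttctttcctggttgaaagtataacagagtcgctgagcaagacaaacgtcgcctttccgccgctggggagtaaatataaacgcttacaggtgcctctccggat
Nfkb2 has 3 listed starts. Before the first of them, at chr19:46304487-46304736 on the plus strand, the matches were GGAATTCCCC, beginning 38 bases before the start, and GGGGCTTTCC, beginning 11 bases before it. The other starts had 1 match each, GGAATGTCCC beginning 236 bases before the second and GGGACTTTCC beginning 225 bases before the third. The 4.65% above counts promoter rows and not genes, and Nfkb2 alone has 3 rows. A match gives letters in a window and not a bound site.

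The matrices hold 2731 called cells for WT 1, 1192 for WT 2, 5558 for Z/Z 1 and 4500 for Z/Z 2, with 8468086 to 50705511 UMIs each. After filtering, 9846 cells were kept, of which 4162 were thymic epithelial cells (TECs). WT 1 had 557 TECs, WT 2 had 105, Z/Z 1 had 1957 and Z/Z 2 had 1543, and WT 2 was the smallest library for TECs, fibroblasts, endothelium and mural cells. These totals include an unnamed cluster led by Pth and Chga, with 15, 5, 347 and 241 cells in the same order. Pth was also a listed parathyroid marker. Whether these cells are parathyroid was not tested, and they count in all TEC sums and shares below. Median UMIs per TEC were 17035 and 17836 in WT against 6747 and 7024 in Z/Z. The WT libraries shared 202 called barcodes with each other and the Z/Z libraries 249, whereas pairs of different genotype shared 0 to 6. Depth per TEC and shared barcodes thus both divided by genotype. Any difference in how the libraries were handled cannot be told apart from genotype here. In the shared barcodes the deeper copy held a median of 30.9 times the UMIs of the other copy in WT and 56.1 times in Z/Z, and 21 and 32 of the shallower copies were among the kept cells. Foxn1 itself was at 90.6 and 125 CPM (the usual depth-scaled count, a gene's UMIs divided by all UMIs of the summed cells) in WT TECs and 51.0 and 68.5 CPM in Z/Z TECs, so each Z/Z library lay below each WT library (log2 fold change -0.70, SE 0.23, edgeR adjusted p = 0.0833). Within the mTEC2-like cells described next Foxn1 was at 94.6 and 170 CPM in WT and 121 and 117 CPM in Z/Z, and the groups overlapped (log2 fold change -0.15, SE 0.32, edgeR adjusted p = 0.866).

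Clusters were made and named without the members. The mTEC2-like cluster, the mature medullary state, was named from 8 other markers, among them Ubd, Cd52, Srgn and Fgf21. All 8 were detected in its cells in each library, with summed levels of 8865 and 8853 CPM in WT and 6774 and 9522 CPM in Z/Z. Fibroblast markers summed to 49.0 to 225 CPM in the same cells, with the highest value in Z/Z 1, and myeloid markers to 436 to 1023 CPM, with the highest in WT 2. Their part in the members' values was not tested. The TECs also included 946 aaTEC2-like cells, of which 11.7% had a UMI of Epcam, the epithelial adhesion molecule. All but 12 of these came from Z/Z libraries. The leading genes of the mTEC1-like cluster included muscle genes (Tnnc2, Myl1, Acta1) beside Ccl21a. Levels given for mTEC1-like cells may therefore mix cell states, which was not tested.

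Across cell types, 8 of the 10 members were highest in the mTEC2-like cluster when libraries were pooled. The exceptions were Tnfrsf11a, which was higher in 1 endothelial cluster, and Ltbr, which was lower in mTEC2-like cells than in every other epithelial type shown. These levels are descriptions, since clusters were drawn from the same cells.

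**Figure D1:**
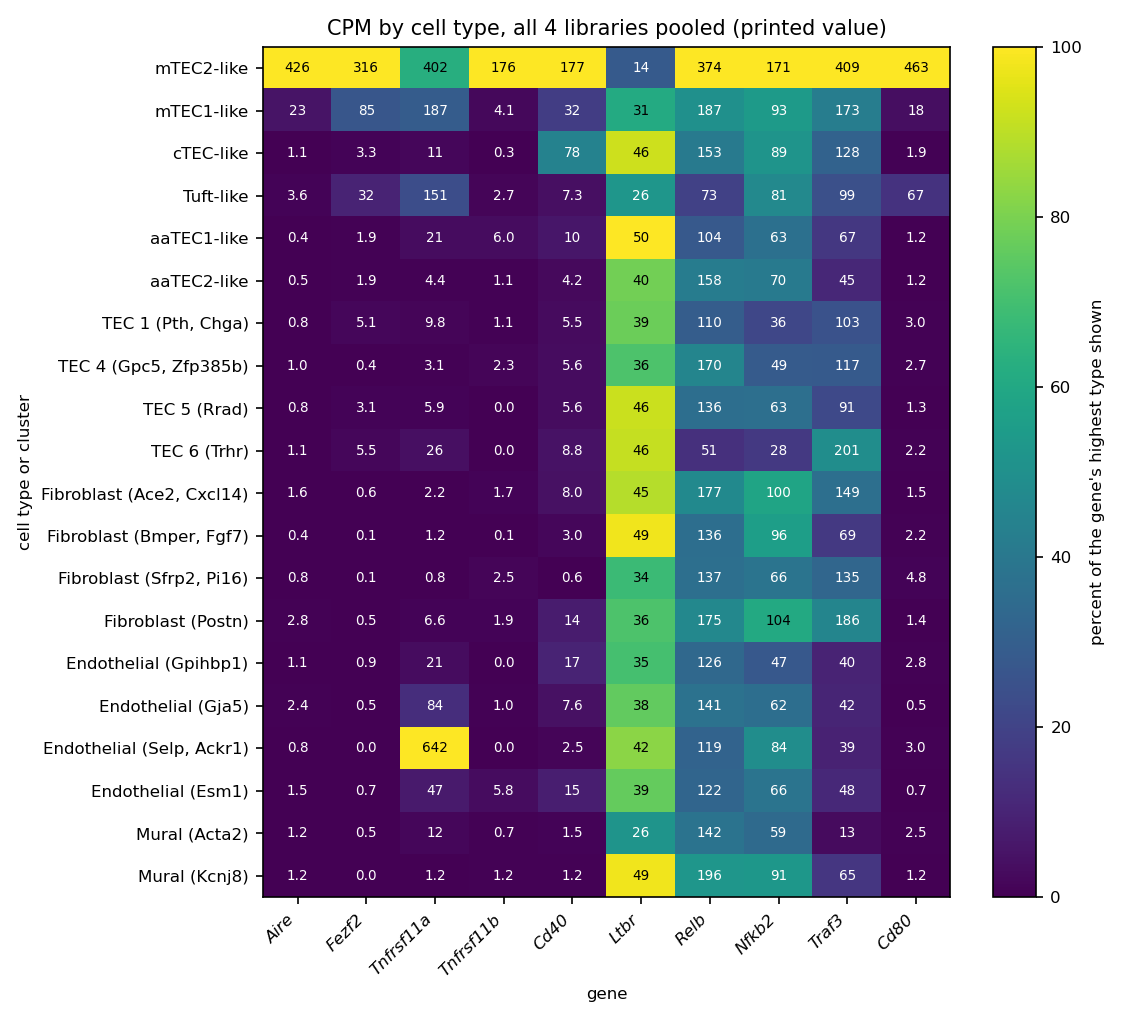
Pooled CPM of each member (columns) in the named or numbered epithelial, fibroblast, endothelial and mural clusters (rows), with colour giving the percent of that gene's highest value among the types shown. The mTEC2-like row is the highest for Aire (426 CPM), Fezf2 (316), Tnfrsf11b (176), Cd40 (177), Relb (374), Nfkb2 (171), Traf3 (409) and Cd80 (463), while Tnfrsf11a peaks in Selp and Ackr1 endothelium (642) and Ltbr is lowest in the mTEC2-like row (14.3).

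Tnfrsf11a, the receptor for RANK ligand, had 2 separate peaks. In the mTEC2-like cluster it was at 358 and 322 CPM in WT and at 607 and 485 CPM in Z/Z. The 217 endothelial cells led by Selp and Ackr1, genes known from venules, gave 669 CPM in WT 1, 716 CPM in Z/Z 1 and 590 CPM in Z/Z 2. In WT 2 this cluster had 5 cells and 2 UMIs of the gene, too few for a level. The venule-gene cluster thus passed the highest mTEC2-like library in 2 of its 3 measured libraries. Other endothelium was lower, at 84.4 CPM pooled in the Gja5 cluster, 47 CPM in the Esm1 cluster and 21.3 CPM in the Gpihbp1 cluster. Among epithelial types, mTEC1-like cells followed at 187 CPM and tuft-like cells at 151 CPM, and cTEC-like cells (cortical) were at 11.4 CPM. In the venule-gene cluster, 76.5% of cells had a UMI of Tnfrsf11a (exact 95% interval 70.3 to 82.0%, median 10183 UMIs per cell), against 0.906 to 1.08% of fibroblasts in Z/Z (median 10303 and 10498 UMIs) and 2.68 to 3.14% in WT (median 14367 and 14676 UMIs). That interval covers counting error only.

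**Figure D2:**
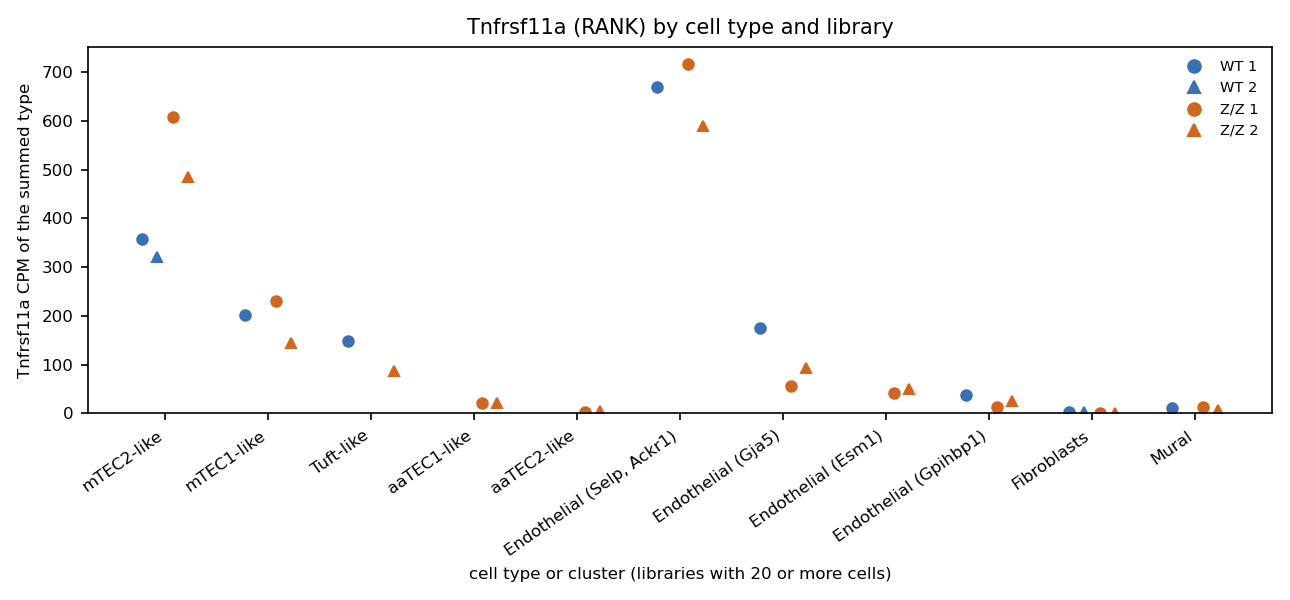
Tnfrsf11a CPM (vertical axis) by cell type, 1 point per library with 20 or more cells of that type. The mTEC2-like points lie at 322 to 607 CPM and the Selp and Ackr1 endothelial points at 590 to 716 CPM, and the fibroblast points lie near 0.

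Cd40, the receptor for CD40 ligand, was second highest in cTEC-like cells, at 78.2 CPM pooled, after 177 CPM in mTEC2-like cells. By library, cTEC-like cells gave 95.3 CPM in WT 1 and 60.0 CPM in Z/Z 2, the only libraries with 20 or more of them. Ltbr, which binds lymphotoxin and LIGHT, had the flattest profile. Its pooled level was 50.3 CPM in aaTEC1-like cells, 49.1 CPM in both Bmper fibroblasts and Kcnj8 mural cells, and 14.3 CPM in mTEC2-like cells, and the order above 40 CPM is not resolved beyond the spread between libraries.

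The decoy Tnfrsf11b was near 0 outside mTEC2-like cells, apart from 45.3 CPM in an unnamed cluster led by Cmtm5 and S100b and 35.3 CPM in the 38 basal or goblet-like cells. Traf3 (201 CPM in the TEC cluster led by Trhr, 186 CPM in Postn fibroblasts), Relb (196 CPM in Kcnj8 mural cells) and Nfkb2 (104 CPM in Postn fibroblasts) were present in every lineage.

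Fezf2 had a second, lower level in mTEC1-like cells, at 159 CPM in WT 1, 58.8 CPM in Z/Z 1 and 74.2 CPM in Z/Z 2. Aire there was at 4.54 CPM (3 UMIs) in WT 1, 47.2 CPM in Z/Z 1 and 12.9 CPM in Z/Z 2, far below its mTEC2-like level in the same libraries. Cd80 had small further peaks in B or plasma cells (76.9 CPM) and tuft-like cells (67.3 CPM). A cluster of 77 shallow cells, all from WT 2 and with a median of 1916 UMIs, stayed unnamed and gave 330 CPM of Aire but 49.2 CPM of Fezf2 and 21.1 CPM of Cd40. Droplets of 100 or fewer UMIs, which hold free RNA, gave 77.9 and 81.6 CPM of Aire in WT and 39.7 and 36.0 CPM in Z/Z.

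The first comparison asked whether the epithelium as captured differed between genotypes. UMIs were summed over the TECs of each library and tested with edgeR's quasi-likelihood test, adjusted over 18884 genes. Of the 10 members, 8 were lower in Z/Z, 1 was higher and 1 did not pass, against 12% of all genes tested lower, 10.4% higher and 22.4% called in either direction. The groups did not overlap for any member, with Z/Z below for 9 and above for 1, where 67.4% of all genes did not overlap, 39.2% with Z/Z below and 28.1% with Z/Z above. The median log2 fold change of the members was -1.67, against -0.00077 over all genes. In sums of this kind, fewer cells of a type and less RNA per cell cannot be told apart.

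Among the receptors, Tnfrsf11a was at 242 CPM in WT 1 and 229 CPM in WT 2, and at 64.1 CPM in Z/Z 1 and 83.7 CPM in Z/Z 2. Each Z/Z library was thus well below each WT library, and the log2 fold change was -1.53 (SE 0.17, edgeR adjusted p = 0.00818). Cd40 fell from 121 and 127 CPM to 18.9 and 35.5 CPM, a log2 fold change of -2.04 (SE 0.31, edgeR adjusted p = 0.0134). Ltbr went the other way. It was at 19.9 and 24.2 CPM in WT and 38.2 and 44.4 CPM in Z/Z, and rose by 1.07 on the log2 scale (SE 0.20, edgeR adjusted p = 0.0209). The RANK ligand decoy Tnfrsf11b moved with the receptor Tnfrsf11a, from 92.9 and 102 CPM to 22.3 and 27.6 CPM (log2 fold change -1.82, SE 0.18, edgeR adjusted p = 0.00791).

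Of the cytoplasmic and nuclear members, Traf3, the adaptor that restrains NIK, was lower, at 322 and 291 CPM in WT against 102 and 127 CPM in Z/Z (log2 fold change -1.28, SE 0.16, edgeR adjusted p = 0.00924). Relb, the transcription factor at the end of the alternative pathway, was at 272 and 271 CPM in WT and 143 and 170 CPM in Z/Z, and its decrease was the smallest of the 8 (log2 fold change -0.65, SE 0.14, edgeR adjusted p = 0.0312). Its partner Nfkb2 did not pass the test, at 119 and 112 CPM in WT and 58.4 and 98.6 CPM in Z/Z (log2 fold change -0.42, SE 0.26, edgeR adjusted p = 0.285). The Z/Z libraries differed from each other more for Nfkb2 than the WT libraries did.

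The output genes were lower too. Aire was at 218 and 252 CPM in WT and 45.3 and 64.3 CPM in Z/Z (log2 fold change -1.96, SE 0.21, edgeR adjusted p = 0.00809). Fezf2 fell from 188 and 195 CPM to 28.9 and 53.8 CPM, a log2 fold change of -2.07 (SE 0.30, edgeR adjusted p = 0.0123). Cd80 changed most of all members, from 283 and 390 CPM to 26.5 and 54.7 CPM (log2 fold change -2.91, SE 0.38, edgeR adjusted p = 0.0101). The calls for Ltbr and Relb were lost when single libraries were left out, for Ltbr without WT 1, Z/Z 1 or Z/Z 2 and for Relb without each of the 4 in turn. No member and 1 gene in all was called once every barcode shared between same-genotype libraries was removed with both of its copies, which left 51 TECs in WT 2. When just the shallower copy was removed, an alternative added after the data were seen, 8 members remained lower and 1 higher.

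Markers listed for other cells also differed between genotypes in the same TEC sums. The 6 myeloid markers summed to 271 and 639 CPM in WT and to 60.5 and 80.8 CPM in Z/Z, all detected except Itgax in WT 2. This sum had every Z/Z library below every WT library, as did Cd80 and Cd40, genes that such cells are also known to express. Within mTEC2-like cells the same markers summed to 436 and 1023 CPM in WT and 777 and 498 CPM in Z/Z, and the groups overlapped. Of the 6 markers, 1 was seen in 20% or more of those cells in each library. In the TEC sums the 5 fibroblast markers lay the other way, at 128 and 106 CPM in WT and 246 and 268 CPM in Z/Z. Their part in the members' values was not tested.

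**Figure D3:**
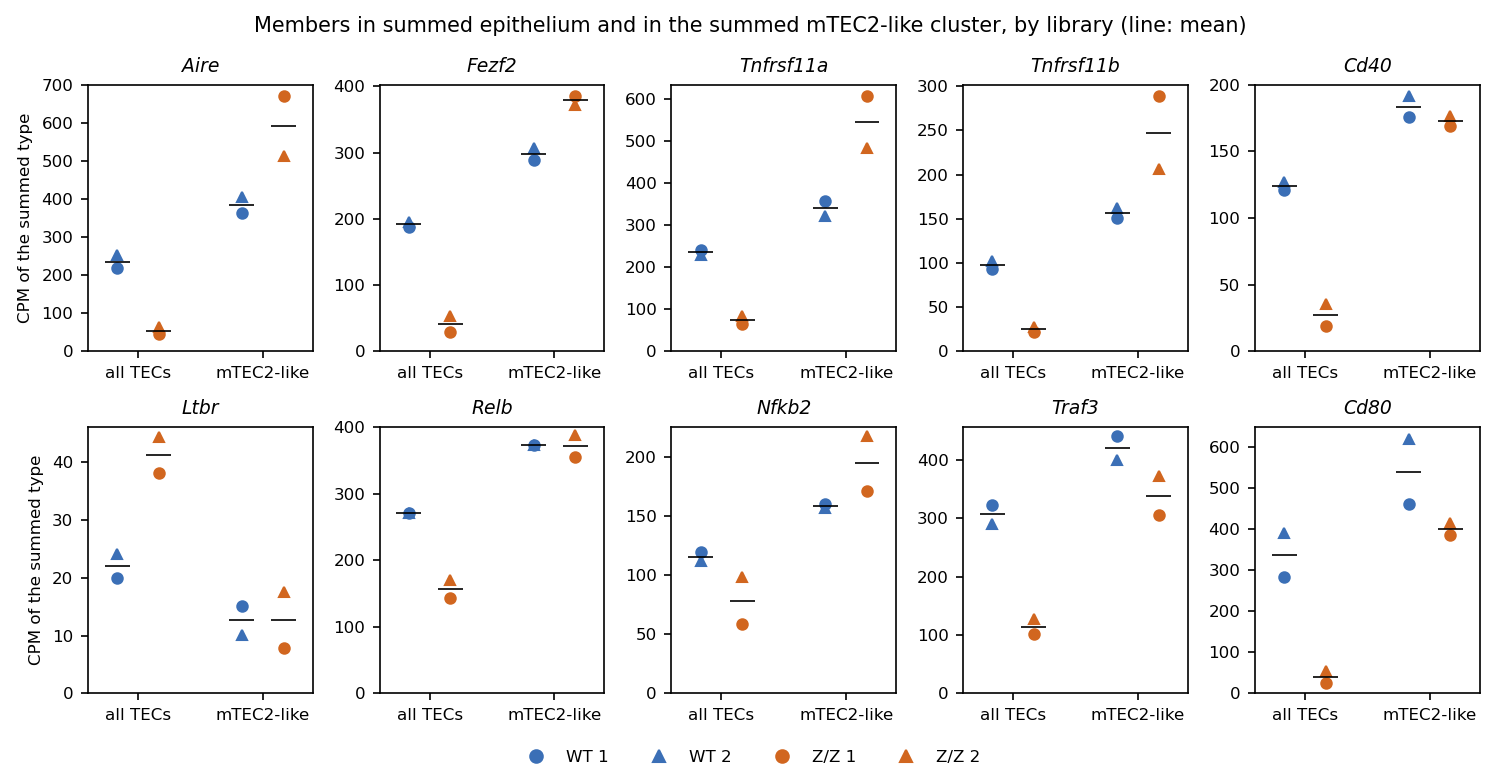
CPM of each member (vertical axis, a separate scale for each gene) in summed TECs and in the summed mTEC2-like cluster, 1 point per library and a line at the mean of 2. In all TECs the Z/Z points lie below the WT points for 9 members and above for Ltbr, while in the mTEC2-like cluster Aire, Fezf2, Tnfrsf11a, Tnfrsf11b and Nfkb2 have both Z/Z points above the WT points.

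The TEC sums mix clusters, and the cluster that carries most of the members differed between genotypes in its share of captured TECs. mTEC2-like cells were 50.8% of TECs in WT 1 (283 of 557) and 47.6% in WT 2 (50 of 105), but 2.86% in Z/Z 1 (56 of 1957) and 5.38% in Z/Z 2 (83 of 1543). In an edgeR test of cell numbers over 14 epithelial clusters the log2 fold change of the share was -3.58 (SE 0.53, adjusted p = 3.29e-06). The share itself depended on how finely cells were clustered and on the cell filter. At resolution 2 the WT shares were 12.7 and 12.1% and the Z/Z shares 1.01 and 1.96%, and with over 500 genes per cell these became 36.4 and 29.0% against 2.52 and 4.24%. By UMIs, the mTEC2-like cluster supplied 59.9 and 62.1% of WT epithelial RNA and 6.21 and 12.2% of that of Z/Z. The cluster's median depth was 23561 to 30792 UMIs per cell in all libraries, so these cells were not shallower in Z/Z, unlike TECs as a whole.

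The members differed in how far they rested on this cluster. On average 99.5% of the epithelial UMIs of Aire came from mTEC2-like cells in WT and 94.8% in Z/Z. For Cd80 these shares were 98.2 and 91.6%, for Tnfrsf11b 98.0 and 86.0%, and for Fezf2 94.9 and 83.8%. The receptors kept less of their UMIs there in Z/Z, with 64.9% for Tnfrsf11a and 58.2% for Cd40 after 88.0 and 90.4% in WT. For the widely present Traf3, Relb and Nfkb2, the share went from 83.7 to 83.9% in WT to 21.7 to 27.3% in Z/Z. Ltbr had 35.8% of its epithelial UMIs in the cluster in WT and 3.07% in Z/Z.

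**Figure D4:**
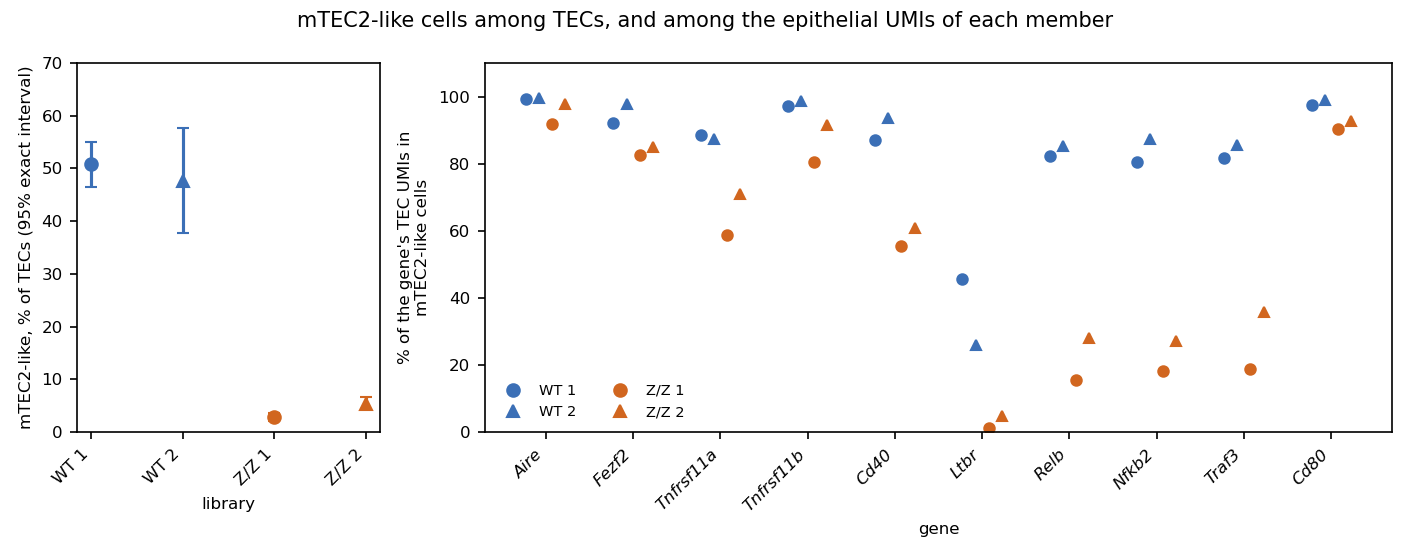
Left, mTEC2-like cells as a percent of TECs in each library with the exact 95% interval of counting error; right, the percent of each member's epithelial UMIs that came from mTEC2-like cells, 1 point per library. The WT shares are 50.8 and 47.6% and the Z/Z shares 2.86 and 5.38%, and Aire, Cd80, Fezf2 and Tnfrsf11b stay above 80% in all libraries while Relb, Nfkb2 and Traf3 do so in WT alone.

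The second comparison asked whether the members differed within mTEC2-like cells. None of the 10 passed edgeR's test there, and none of the 12788 genes tested did (0% called), although 1786 genes had an unadjusted p under 0.05 and DESeq2 called 200. The members' median log2 fold change was 0.15, against -0.0030 over all genes. Groups did not overlap for 7 members, with Z/Z above for 5 and below for 2, where 48.3% of all genes did not overlap, 24.1% with Z/Z above and 24.2% below.

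Aire in mTEC2-like cells was at 362 and 404 CPM in WT and 669 and 513 CPM in Z/Z, so both Z/Z libraries were higher (log2 fold change 0.62, SE 0.19, edgeR adjusted p = 0.305). Tnfrsf11a, at 358 and 322 CPM against 607 and 485 CPM, had a log2 fold change of 0.67 (SE 0.18, edgeR adjusted p = 0.277). Tnfrsf11b was at 151 and 163 CPM in WT and 289 and 206 CPM in Z/Z (log2 fold change 0.65, SE 0.21, edgeR adjusted p = 0.317). Receptor, decoy and Aire thus had the same sign and a similar size in these cells, opposite to their sign in the whole epithelium, with no test passed.

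Fezf2 was closer between genotypes, at 289 and 308 CPM in WT and 385 and 373 CPM in Z/Z (log2 fold change 0.34, SE 0.15, edgeR adjusted p = 0.395). Nfkb2 was at 160 and 157 CPM in WT and 172 and 218 CPM in Z/Z (log2 fold change 0.29, SE 0.20, edgeR adjusted p = 0.543). The 2 members with Z/Z below were Traf3 and Cd80. Traf3 was at 440 and 400 CPM in WT and 305 and 372 CPM in Z/Z (log2 fold change -0.32, SE 0.18, edgeR adjusted p = 0.483). Cd80 was at 460 and 620 CPM in WT and 385 and 415 CPM in Z/Z, the WT libraries lying far apart (log2 fold change -0.44, SE 0.21, edgeR adjusted p = 0.411).

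For 3 members the mTEC2-like groups overlapped. Relb was at 373 CPM in both WT libraries and at 356 and 389 CPM in Z/Z (log2 fold change -0.01, SE 0.15). Cd40 was at 176 and 191 CPM in WT and 169 and 177 CPM in Z/Z, and Ltbr at 15.2 and 10.1 CPM in WT and 7.91 and 17.6 CPM in Z/Z from 10 to 112 UMIs. For these the sign of the change depended on the settings.

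Holding the mTEC2-like share of epithelial UMIs at 61.0%, the WT mean, in every library gave a description of the same split. With that weight the Z/Z over WT ratio of the epithelial level was 1.54 for Aire, 1.22 for Fezf2, 1.46 for Tnfrsf11a and 1.56 for Tnfrsf11b, after unweighted ratios of 0.233, 0.216, 0.314 and 0.256. For Cd40 the weighted ratio was 0.893, for Relb 1.03, for Nfkb2 1.25 and for Ltbr 1.13. The lowest weighted ratios were 0.789 for Traf3 and 0.732 for Cd80, after 0.373 and 0.121 without the weight.

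With the mTEC2-like cluster taken out of the TEC sums, 561 of 16501 genes were called and 1 member was among them. Tnfrsf11a remained lower in the other TECs of Z/Z (log2 fold change -1.29, SE 0.18, edgeR adjusted p = 0.0256). Cd80 (log2 fold change -2.05, edgeR adjusted p = 0.0532) and Fezf2 (log2 fold change -1.83, edgeR adjusted p = 0.114) did not pass. Aire in these cells was at 3.86 and 2.21 CPM in WT and at 3.93 and 1.64 CPM in Z/Z, and the groups overlapped. Relb and Nfkb2 had positive changes of 0.31 and 0.49 on the log2 scale, with edgeR adjusted p of 0.336 and 0.409. The remaining clusters also differ in share between genotypes, so these sums mix types as well.

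**Figure D5:**
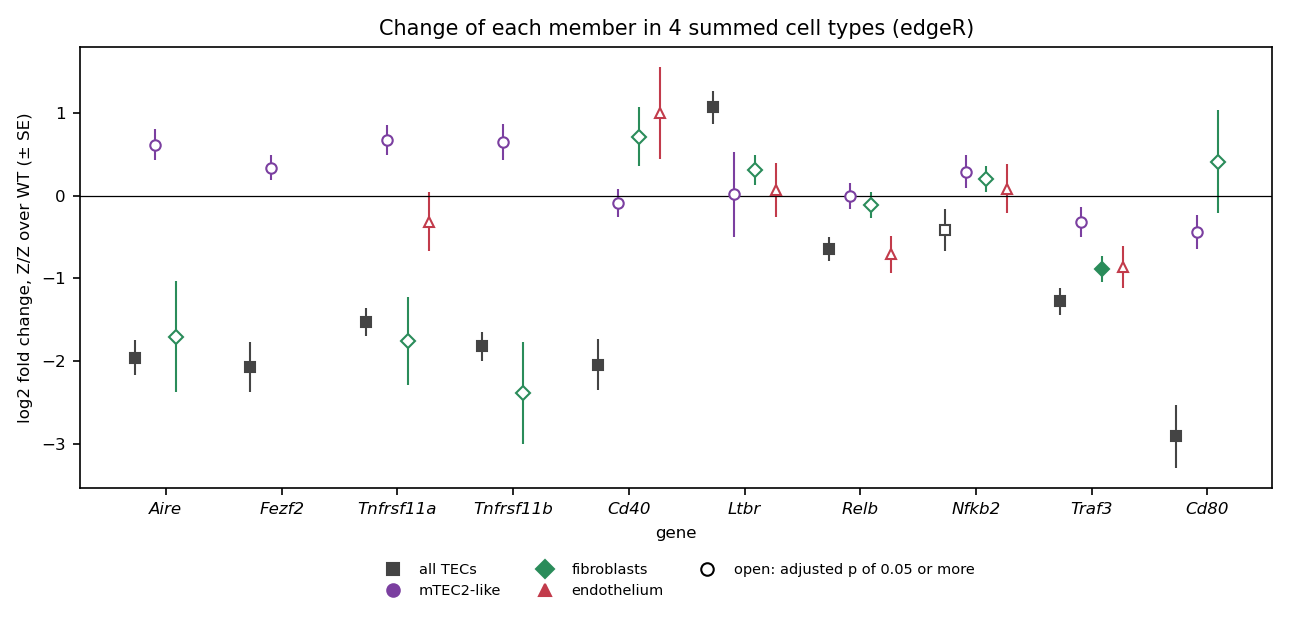
Log2 fold change of Z/Z over WT with its SE for each member in summed TECs, mTEC2-like cells, fibroblasts and endothelium, with filled symbols where the edgeR adjusted p was under 0.05. Filled symbols are 9 members in TECs and Traf3 in fibroblasts, and the mTEC2-like symbols lie between -0.44 and 0.67.

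In the main tests outside the epithelium, Traf3 in fibroblasts was the only member called. In fibroblasts 9 members were tested and 1 was called, against 2.98% of 13879 genes (1.74% higher in Z/Z, 1.24% lower). Traf3 was at 177 and 201 CPM in WT fibroblasts and 94.1 and 101 CPM in Z/Z fibroblasts, well apart (log2 fold change -0.89, SE 0.16, edgeR adjusted p = 0.0193). The call was lost without any one of the 4 libraries, with edgeR adjusted p of 0.0657 to 0.231, without shared barcodes (0.102) and with cells thinned to 2000 UMIs (0.0503), while the fold change stayed between -0.98 and -0.67. Droplets of 100 or fewer UMIs held Traf3 in the same order, at 133 and 119 CPM in WT and 84.4 and 109 CPM in Z/Z. The part of free RNA in the fibroblast values was not tested. Relb, Nfkb2 and Ltbr in fibroblasts had log2 fold changes of -0.11, 0.20 and 0.31 and did not pass.

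The members under 10 CPM in fibroblasts did not share a direction, and none passed. Aire was at 1.69 and 3.17 CPM in WT and 0.743 and 0.539 CPM in Z/Z, and Tnfrsf11b at 2.65 and 4.58 CPM in WT and 0.578 and 0.673 CPM in Z/Z (edgeR adjusted p = 0.218 and 0.0763). Tnfrsf11a was likewise lower in both Z/Z libraries, at 3.50 and 3.52 CPM in WT and 0.908 and 1.08 CPM in Z/Z (edgeR adjusted p = 0.117). Cd40 lay the other way, at 3.86 and 3.52 CPM in WT and 6.27 and 5.39 CPM in Z/Z (edgeR adjusted p = 0.336). Cd80, at 2.29 and 2.47 CPM in WT and 1.49 and 4.71 CPM in Z/Z, overlapped. The summed mTEC2-like markers in the same fibroblasts were 128 and 101 CPM in WT and 72.1 and 102 CPM in Z/Z, and the empty droplets had more Aire in WT. They also had more Cd40 in WT, at 39.7 and 22.9 CPM against 18.1 and 12.7 CPM in Z/Z, opposite to its order in fibroblasts. The part of free RNA in these low values was not tested.

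In endothelium 6 members were tested and none was called by edgeR, against 1.87% of 11359 genes (0.942% higher in Z/Z, 0.924% lower). The groups did not overlap for 3 of them, with Z/Z below for Traf3 and Relb and above for Cd40, where 53.3% of all genes did not overlap, 23.9% with Z/Z below and 29.4% above. Traf3 was again lower in both Z/Z libraries, at 69.3 and 68.3 CPM in WT and 38.1 and 38.4 CPM in Z/Z (log2 fold change -0.86, SE 0.26, edgeR adjusted p = 0.101, unadjusted 0.00541). Relb was at 173 and 242 CPM in WT and 108 and 133 CPM in Z/Z (log2 fold change -0.71, SE 0.23, edgeR adjusted p = 0.125, unadjusted 0.00853). Those were the 2 members with an unadjusted p under 0.05, as had 2079 of all 11359 genes tested. WT 2 had 25 endothelial cells, in which Traf3 had 13 UMIs and Relb 46.

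Endothelial Tnfrsf11a depended on single WT libraries. It was at 271 CPM in WT 1 but 68.3 CPM, from 13 UMIs, in WT 2, and at 155 and 166 CPM in Z/Z, so the groups overlapped (log2 fold change -0.31, edgeR adjusted p = 0.680). Without WT 1 its log2 fold change was 1.38 and without WT 2 it was -0.77, each with an edgeR adjusted p under the threshold (0.0440 and 0.0369). The change between genotypes was also compared between cell types with an interaction term in edgeR, and for Cd40 and Cd80 it was more negative in TECs than in fibroblasts (differences of -2.88 and -3.23 on the log2 scale, adjusted p = 0.00244 and 0.000918, 11.4% of all genes called). Against endothelium Tnfrsf11a and Cd40 differed (9.35% of all genes called), and each of them was lost without at least 1 library. Cd80 did not pass the count filter in endothelium, where the WT libraries held 2 and 0 of its UMIs and the Z/Z libraries 12 and 10, and is not compared there. In these comparisons the TEC side was a sum that mixed clusters, whose shares differed between genotypes. The endothelial side mixed clusters too. Its Selp and Ackr1 cluster, the highest in Tnfrsf11a, had 24 of 109 endothelial cells in WT 1 and 5 of 25 in WT 2. In Z/Z 1 it had 86 of 696 and in Z/Z 2 102 of 671. The part of this share in the endothelial Tnfrsf11a values was not tested. Mural cells were not tested, because WT 2 had 11 of them.

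The share of TECs with a UMI was compared after every cell had been thinned to 2000 UMIs, which left out 17 and 2 WT cells and 47 and 71 Z/Z cells. Aire was then detected in 22.2 and 17.5% of WT TECs and 2.09 and 2.51% of Z/Z TECs, a difference of -17.5 percentage points. Fezf2 was detected in 20.7 and 15.5% against 1.62 and 2.72%, Tnfrsf11a in 28.0 and 23.3% against 5.13 and 6.11%, and Cd40 in 15.7 and 17.5% against 1.78 and 3.60%. All 4 genes had every Z/Z library below every WT library, and the exact two-sided permutation p was 0.333 for each, the smallest that 2 against 2 libraries allow. How many of all genes had this order in thinned cells was not computed. In the TEC sums by CPM, 39.2% of all genes tested had it. At full depth the WT shares of Aire were 40.0 and 36.2%, and those of Z/Z 3.27 and 4.86%. Fibroblasts gave 0 to 0.524% for Aire, Fezf2 and Tnfrsf11a at 2000 UMIs. For Cd40, a receptor that fibroblasts can also express, the WT shares were 0.340 and 0% and the Z/Z shares 0.908 and 0.816%, so this is no background level for it.

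Within mTEC2-like cells at the same depth, Aire was detected in 43.4 and 36.7% of WT cells and 65.5 and 45.1% of Z/Z cells. Tnfrsf11a was detected in 42.6 and 40.8% against 61.8 and 53.7%, so both genes kept the order they had by CPM. Fezf2, at 35.7 and 32.7% against 30.9 and 29.3%, did not keep its order, and no direction is read from it.

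Most mTEC2-like cells had a UMI of both Aire and Fezf2. At full depth both had a UMI in 161 of 283 cells of WT 1, 30 of 50 of WT 2, 37 of 56 of Z/Z 1 and 55 of 83 of Z/Z 2. These were 56.9, 60.0, 66.1 and 66.3% of the cells. Neither gene had a UMI in 5.36 to 20.0% of the cells of a library.

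The genes around the members in the pathway were described with 9 lists of 57 genes in the TEC sums, where 12% of all genes tested were lower and 10.4% higher and the median over all genes was -0.00077. Of the ligands, 2 of 3 tested were lower and none higher. Lta was at 12.3 and 7.52 CPM in WT and 0.197 and 1.05 CPM in Z/Z (log2 fold change -3.88, edgeR adjusted p = 0.0251), and Ltb, the other lymphotoxin chain, had a log2 fold change of -2.47 (edgeR adjusted p = 0.0420). By cell type Lta was highest in mTEC2-like cells (15.0 CPM), Ltb in the residual thymocytes (79.2 CPM) and then in mTEC2-like cells (54.9 CPM) among types of 20 or more cells. Tnfsf11, which encodes RANK ligand, rested on few UMIs. In thymocytes it had 10 UMIs in WT 1 (18.1 CPM), 2 in WT 2 (6.75 CPM) and 0 in Z/Z, where 5 and 34 thymocytes were kept. Postn fibroblasts reached 21.7 CPM in Z/Z 1 (13 UMIs in 2 of 53 cells), and aaTEC2-like cells had 33 UMIs in Z/Z 1 (10.1 CPM) and 6 in Z/Z 2 (2.64 CPM). Cd40lg had 6 thymocyte UMIs, all in WT 1 (10.8 CPM). Tnfsf14, which encodes LIGHT, was under 1 CPM with libraries pooled in every type of 20 or more cells, and its highest level in a library with 20 or more cells of a type was 1.79 CPM (7 UMIs), in the largest fibroblast cluster of WT 1. The CD45 depletion removes most cells known to make these ligands.

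The other receptors were split, with 2 higher and 2 lower of 6 tested. Tnfrsf9 (log2 fold change -2.12) and Tnfrsf4 (-1.92), both co-stimulatory receptors, fell, while Tnfrsf12a (1.96), the TWEAK receptor, and Tnfrsf1a (1.30), a TNF receptor, rose. Of 7 adaptors and ligases, 1 was higher and 2 lower, namely Traf5 (0.98), Traf1 (-1.93) and Birc2 (-0.59). Among 5 kinases Ikbkb (-1.08), a kinase of the classical pathway, was lower and Map3k14 (0.57), which encodes NIK, was higher. Of the 3 other NF-kB subunits Rela rose by 1.04 and Rel fell by 0.95 on the log2 scale. The medians of these lists were -0.04 for receptors, -0.51 for adaptors, -0.22 for kinases and 0.18 for subunits.

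Of 7 NF-kB inhibitors and feedback genes, 1 was higher (Bcl3, 1.52) and 1 lower (Tnip1, -0.72), with a median of 0.05. The co-stimulatory and co-inhibitory ligands had 4 lower and 1 higher of 6 and a median of -1.74, which is a description and not a test of the list. Cd70 (-2.80), Tnfsf9 (-2.08), Icosl (-1.40) and Pdcd1lg2 (-0.97) fell, and Cd274 (1.04), which encodes PD-L1, rose from 493 and 428 CPM to 747 and 966 CPM. Of the 11 partners and regulators of AIRE and FEZF2 reported, 2 were lower, 2 higher and 7 did not pass. Sirt1 (-2.04), a deacetylase that acts on AIRE, and Spib (-1.42), an mTEC transcription factor, fell, while Top1 (0.86) and Hdac3 (0.87) rose. Of 5 medullary chemokines tested, Ccl21a was higher (0.78), the median was -0.14, and its near-identical copies make that count uncertain.

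In mTEC2-like sums no gene of the 9 lists was called by edgeR. In fibroblasts Spib was lower (14.7 and 17.6 CPM in WT, 5.69 and 5.12 CPM in Z/Z) and Ccl21a higher (5.06 and 1.06 CPM in WT, 12.4 and 28.3 CPM in Z/Z). Both genes moved the same way in the TEC sums. The part of free epithelial RNA in these low fibroblast values was not tested. In endothelium Tnfrsf12a was higher (log2 fold change 1.48, edgeR adjusted p = 0.0202) and Birc2 lower (157 and 110 CPM in WT, 70.3 and 72.1 CPM in Z/Z, edgeR adjusted p = 0.0489). No ligand was tested in either type.

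Likeness of pattern was measured as Pearson's r of log2(CPM + 1) over 30 clusters, which share libraries and depth, and is given as a description. Closest to Aire was Sspo (r = 0.915), then Pate14 and Skint2. Closest to Fezf2 was Cacna1b (r = 0.945), then Ptprq and Lpo. Cd80 was closest to Kynu (r = 0.928), Ebi3 and Slc6a7, and all 9 of these genes were highest in mTEC2-like cells. Ltbr was closest to Tead1 (r = 0.929), Yap1 and Nfib, none of them highest there. For the others the closest genes were less alike. They were Sh3bgrl2 (r = 0.774), Stap2 and Tes for Tnfrsf11a, and Ubd (r = 0.763), AU020206 and Crip3 for Cd40. Relb was closest to Spr (r = 0.771), Nfkbia and Etf1, and Nfkb2 to Gas2l1 (r = 0.759), Anxa5 and Tnip1. Tnfrsf11b was closest to Ptgds (r = 0.753), Gm42601 and Gm11639, and Traf3 to Rab3gap2 (r = 0.749), Bmp2k and Abhd17c. Aire and Fezf2 had r = 0.763 with each other.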

How the data were processed

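The authors deposited filtered and unfiltered UMI count matrices of 4 libraries, made with Cell Ranger 7.01 per the submitters' processing notes (builds GRCm38.p5 and mm10), with 32285 genes. Genes per cell over 1000 and mitochondrial UMIs under 20% were required, leaving 10245 of 13981 called cells. The automatic doublet threshold marked 97, so the 3.9% highest scores per library were removed, leaving 9846. Cells were clustered (scanpy 1.11.5, leidenalg 0.10.2, 3500 variable genes, 35 components, 45 within epithelium, 20 neighbours, resolution 1) without 172 genes (members, lists, markers and Foxn1). No cell annotation was used from the authors, and clusters were named from marker lists; score minimums of 0.1 for lineages and 0.5 for epithelial classes, the 20% marker share and the 25% Epcam limit were set after the data were seen. Cluster names may therefore differ from the study's. In the CPM and tests, 101 ribosomal and haemoglobin genes were left out.

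UMIs were summed per library and type, where every library had at least 20 cells, and tested with edgeR 4.0.16 (R 4.3.3, TMM, filterByExpr, glmQLFTest, two-sided, Benjamini-Hochberg, threshold 0.05). DESeq2 1.42.0 was an alternative. The rank-sum test over cells was not used, since cells are not replicates. Scripts were tested on simulated data. Members, lists, markers and tests were chosen with earlier results of these data known. Text names every member, listed genes with an adjusted p under 0.05 in TEC sums (at most 6 a list), the ligands, and the 3 genes most like each member. Genes named elsewhere label clusters. For the AIRE and FEZF2 partner list, 1 of 12 genes and the list's median are not reported here.

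Replicate numbers name libraries and do not pair them. Depth differed between libraries, and WT 2, with 2395099 epithelial UMIs, gives the least precise values. Intervals cover counting error only. Alternatives were another tool, scaling, filter, depth, cell filters, resolution, barcodes and each library left out, where the 1 library left in a genotype is assumed to vary as the other groups do.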

Additional observations from a re-analysis of the deposited data

Results flagged for a closer look

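For some members the change between genotypes differed between cell types, by a test of the difference itself (a genotype by cell type term in edgeR over all genes, where 11.4% of 18458 genes passed for TECs against fibroblasts and 9.35% of 16609 genes for TECs against endothelium). Against fibroblasts, the log2 change in TECs was lower by 2.88 for Cd40 (difference -2.88, SE 0.40, adjusted p = 0.00244). For Cd80 the difference was -3.23 (SE 0.35, adjusted p = 0.000918). Both also passed without each library in turn, where the 1 library left in a genotype is assumed to vary as the other groups do. In fibroblasts Cd80 was at 1.49 to 4.71 CPM and Cd40 at 3.52 to 6.27 CPM, so these comparisons set an epithelial level against a low one.

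Against endothelium, the difference was -1.66 for Tnfrsf11a (SE 0.34, adjusted p = 0.000322) and -3.32 for Cd40 (SE 0.53, adjusted p = 3.04e-06). With single libraries left out Tnfrsf11a ranged from -3.21 to -0.97 and did not pass without Z/Z 1 (adjusted p = 0.290) or Z/Z 2 (0.0542). Cd40 ranged from -3.61 to -2.88 and did not pass without Z/Z 1 (0.0559). Cd80 did not pass the count filter in endothelium and is not compared there. Endothelial Cd40 in WT rested on 5 and 2 UMIs. Both the TEC and the endothelial sums mixed clusters whose shares differed between libraries. The part of these shares in the differences was not tested.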

How the results depend on the processing

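Depth limits these comparisons most in WT 2, and with 2 libraries a genotype no exact test over libraries can pass. The share of mTEC2-like cells kept its direction and its side of the threshold under all 11 alternatives, with log2 fold changes of -4.17 to -3.07, while the share itself ranged from 12.1 to 62.3% in WT and from 1.01 to 9.20% in Z/Z. In the TEC sums 9 members were called, and their number moved by less than 1.5 times in 15 of 17 alternatives. It was 1, of 561 genes in all, with the mTEC2-like cluster taken out, and 0, of 1 gene, with both copies of shared barcodes taken out. Thinning to 2000 UMIs gave 2781 genes, and leaving out single libraries 858 to 3918, the count dropping from 4235 most without Z/Z 1 (858) and Z/Z 2 (1713). In the mTEC2-like sums, against 0 genes, DESeq2 gave 200, no filter on low counts 1306, thinning 9 and resolution 0.5 1 gene, and no member was called by any of 14 alternatives. In fibroblasts, against 414 genes and 1 member, no filter gave 1312 and 2 members, shared barcodes left out 215 and 0 members, thinning 185 and 0 members, and single libraries left out 21 to 146 and 0 members, lowest without Z/Z 1 (21) and Z/Z 2 (23), with 112 without WT 1 and 146 without WT 2. In endothelium, against 212 genes, no filter gave 731, shared barcodes left out 57, thinning 72 and over 500 genes per cell 93, and single libraries left out 77 to 468 with 0 to 1 member, namely Tnfrsf11a, lowest without Z/Z 1 (77) and Z/Z 2 (129) and 468 without WT 1 or without WT 2. Leaving out just the shallower copy of a shared barcode, added after the data were seen, changed no call of a member. The causes of these moves were not tested, other than the fewer cells or libraries that an alternative leaves.

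Replicate numbers name libraries (r = -0.087 over 18884 genes between the WT and the Z/Z differences of replicate 1 and 2). With the replicate number as a block, 2548 genes were called in TECs, 626 in fibroblasts and 367 in endothelium, and Relb lost its call in TECs (edgeR adjusted p = 0.0658). Under the block Ltbr had log2 fold changes of -0.064 in mTEC2-like cells and -0.029 in endothelium, and Nfkb2 -0.037 in endothelium, each against a positive value without it.

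Other changes of sign, as log2 fold changes, were these. Without mTEC2-like cells the TEC sums gave 0.31 for Relb and 0.49 for Nfkb2. In mTEC2-like cells, Cd40 was 0.057 thinned and 0.017 with no doublet removal, Traf3 0.055 with no doublet removal, and Ltbr -0.17 under 10% mitochondrial UMIs and -0.72 to 0.49 with single libraries left out. Relb there was 0.024 thinned, 0.0051 by DESeq2, 0.040 with over 500 genes, 0.068 with no doublet removal, 0.0051 at resolution 0.5, 0.20 under 10% mitochondrial UMIs and -0.088 to 0.10 with single libraries left out. In fibroblasts, Relb was 0.13 thinned and 0.082 without shared barcodes, and Cd80 was -0.60 to 1.07 with single libraries left out. In endothelium without single libraries, Tnfrsf11a was -0.77 to 1.38, Ltbr -0.19 to 0.27 and Nfkb2 -0.27 to 0.33. The mTEC2-like sums could not be tested at resolution 2 or without shared barcodes, nor mural cells at all, with under 20 cells in a library.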
